A study of Rattus norvegicus with 3 samples.

Results

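Rab GTPases are small GTP-binding proteins that label the membranes of a cell, each class at its own compartment. Members were the rat array names made of Rab, digits and at most 1 letter, with letter case ignored and the endings _predicted and _mapped removed. This gave 47 of 35561 gene names and 75 of 41012 probes. Of these, 42 were measured, among 20354 measured names, which means that the scanner software placed at least 1 of their probes well above background in 1 dye on each of the 3 arrays. Rab25, Rab39, Rab3b and Rab9b did not clear the background in either RNA on any array, and Rab3a was above it on only 2 of 3 arrays in each RNA. Rab1b and Rab32 were not among the names of this form. Rab2l has the form, but RefSeq now names it Ralgdsl2, which is not a Rab, so counts are also given without it. The names Rab1, Rab2, Rab7, Rab9 and Rab39 are now Rab1a, Rab2a, Rab7a, Rab9a and Rab39a.

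A Rab protein switches between a GDP-bound form, held in the cytosol by a GDP dissociation inhibitor, and a GTP-bound form anchored in a membrane by lipid groups that geranylgeranyl transferase adds to its tail. Exchange factors load the GTP, GTPase-activating proteins end the active state, and effectors bound by the active form carry out tethering, transport along the cytoskeleton or fusion. Rab1 and Rab5 are used by nearly all cells, whereas others serve the granules, phagosomes, junctions or cilia of particular cell types.

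The iPS M13 samples were untreated rat induced pluripotent stem cells of the line M13, adult cells returned to an embryonic stem cell-like state, grown on irradiated mouse embryonic fibroblasts. The adult RNA, called mix1, joined cultured rat bone marrow cells and cultured rat primary ear fibroblasts. Each of 3 two-colour arrays carried 1 iPS M13 sample in Cy3 and the same mix1 RNA in Cy5, so the comparison addressed how Rab transcripts in the reprogrammed line differ from those in the adult cells. No dye was swapped, so dye and group cannot be told apart, and mix1 entered as 1 RNA without a spread of its own. The strain, the age of the donors and the reprogramming factors are not given in the sources used here. Whether the 3 iPS M13 samples were separate cultures is not labelled, so each p-value covers the spread among 3 hybridisations, which may be technical.

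The share of probes well above background was 53.5% to 60.7% in the iPS M13 channel and 52.3% to 60.9% in the mix1 channel. Of 8 measured markers of pluripotent and epithelial cells, 7 were higher in iPS M13, and Lin28a had a log2 ratio of -0.15 ± 0.04 (SD, n = 3). Nanog, Zfp42 and Tdgf1 were not matched to an array name. All 11 fibroblast markers and all 12 measured macrophage and myeloid markers were lower in iPS M13, with median log2 ratios of -7.22 and -5.70. The summed signal of the fibroblast markers was 29300 to 33100 in iPS M13 and 1980000 to 2210000 in mix1. That of the macrophage and myeloid markers was 4340 to 4790 against 303000 to 314000. Thy1, Postn, Ptprc, Cd74 and Ctss were not well above background in iPS M13 on any array. These markers moved with the Rab differences given next, and their part in them was not tested. In bulk RNA, fewer cells of a type and less RNA per cell cannot be told apart.

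Of the 42 measured Rab genes, 15 (35.7%) were lower and 2 (4.76%) higher in iPS M13 than in mix1, and 25 did not reach the call. A gene was called at a limma adjusted p under 0.05, adjusted by Benjamini-Hochberg over all genes, and at least a 2-fold difference. Over all 20354 genes tested, 25.4% were lower and 18.8% higher, so 44.2% were called in either direction, against 40.5% of the Rab genes. The Rab genes thus were called about as often as genes at large, with a larger share of the calls on the lower side. Their median log2 ratio was -0.80, against -0.02 over all genes, and 35 of the 42 lay below 0, beside 10324 of all 20354. Without Rab2l the median was -0.83, with 15 of 41 genes lower. The adjusted p alone was passed by 40 of the 42 and by 19558 genes in all, so the 2-fold minimum decided the calls.

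The size of these counts depended on how the arrays were scaled. After loess 11.8% of the Rab calls and 42.5% of all calls were on the higher side. With each array centred on its median in place of loess, 5 Rab genes were higher and 8 lower, which put 38.5% of the Rab calls and 67.2% of all calls on the higher side. That centring raised the median of all genes by 0.60, and the Rab median, at -0.04, then lay 0.62 below it, compared with 0.78 below it after loess. Of the 42 Rab genes, 23 then lay below 0, and 24 did without normalization. The 5 higher genes were Rab3c, Rab33a, Rab5a, Rab7 and Rab10, and the 8 genes still lower were Rab31, Rab34, Rab13, Rab26, Rab8b, Rab6b, Rab15 and Rab11a, all among the 15. Without normalization within the array the same counts of Rab genes came out, with 65.1% of all calls higher. With the scanner software's processed signals 4 Rab genes were higher and 14 lower (22.2% of the Rab calls higher, 56.6% of all calls). The sign of a small ratio therefore holds for the scaling used.

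**Figure D1:**
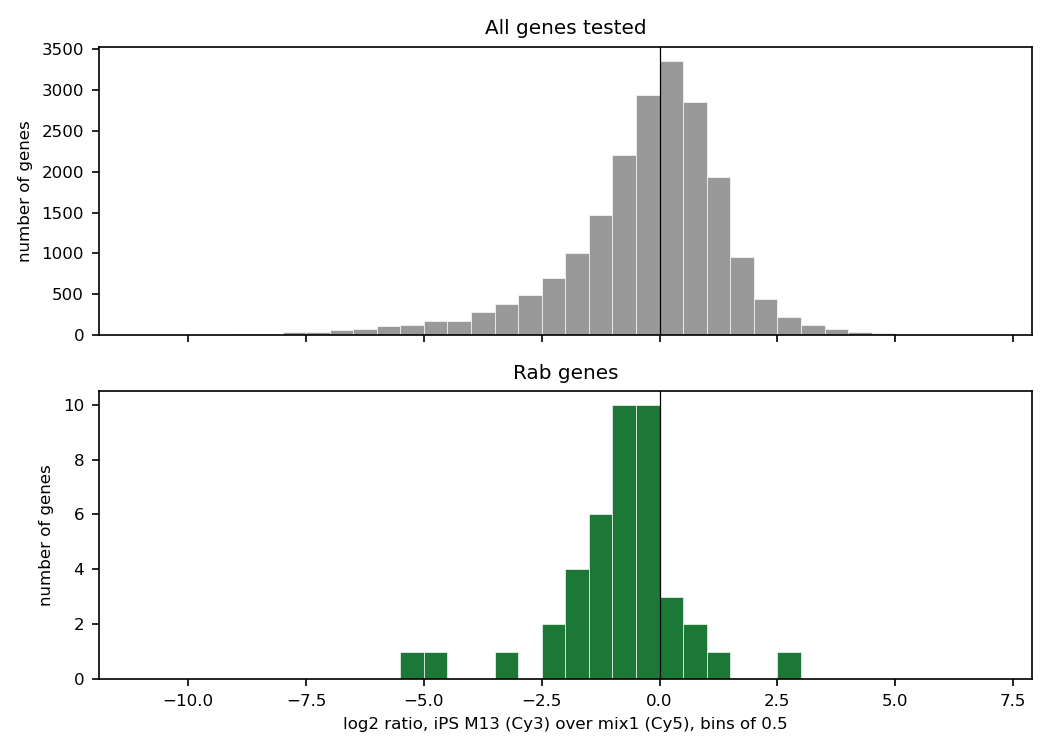
Number of genes per bin of 0.5 in the log2 ratio (iPS M13 over mix1, mean of 3 arrays), for all 20354 genes tested (top) and the 42 measured Rab genes (bottom). After loess the Rab genes crowd just below 0, with 10 in each of the 2 bins between -1 and 0, and 3 stand apart below -3, namely Rab13, Rab34 and Rab31.

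The largest differences were in Rab31 and Rab34. Rab31, also called Rab22b, acts between the trans-Golgi network and endosomes and on phagosomes. Its normalised log2 signal was 12.00, 11.93 and 11.99 in iPS M13 and 17.11, 17.13 and 17.10 in mix1 on replicates 1, 2 and 3. The 2 RNAs lay far apart on every array, with a log2 ratio of -5.14 ± 0.05 (SD, n = 3), a 35.2-fold difference (adjusted p = 6.52e-07). Rab34 works at the Golgi and in the positioning of lysosomes, in macropinocytosis and in the making of cilia. It read 8.60, 8.71 and 8.55 in iPS M13 and 13.45, 13.54 and 13.44 in mix1. Its log2 ratio was -4.86 ± 0.03 (SD, n = 3), a 29.0-fold difference (adjusted p = 6.17e-07). No other measured Rab gene was called at 16-fold or more with this scaling. With the processed signals and the authors' value table Rab3c was too, on the higher side, and with the dimmest probe of each gene Rab38 replaced Rab31, which was then at -3.34. The probes that gave these values, and those of Rab3c and Rab38, are shown because each gene's value rests on the 60 bases it reads. Capitals mark the longest run of bases shared with the probe of any other Rab gene.
Rab31 probe, rn3 chr9:104618044-104618103, minus strand: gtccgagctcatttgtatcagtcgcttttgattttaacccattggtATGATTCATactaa
Rab31 second probe, rn3 chr9:104694725-104700199, minus strand: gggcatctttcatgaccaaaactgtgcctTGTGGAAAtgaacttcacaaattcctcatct
Rab34 probe, rn3 chr10:64458812-64458958, minus strand: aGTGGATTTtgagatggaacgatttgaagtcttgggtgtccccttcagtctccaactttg
Rab3c probe, rn3 chr2:41377622-41377681, minus strand: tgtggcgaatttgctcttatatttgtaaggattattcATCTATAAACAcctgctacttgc
Rab38 brightest probe, rn3 chr1:144862304-144862363, plus strand: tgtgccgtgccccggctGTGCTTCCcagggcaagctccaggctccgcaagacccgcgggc
Rab38 second probe, rn3 chr1:144942472-144942531, plus strand: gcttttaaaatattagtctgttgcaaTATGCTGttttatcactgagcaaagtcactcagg

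Coordinates and strands are those the array files give in build rn3, without exon or UTR annotation. Of the 75 Rab probes, 25, including those of Rab34 and the second one of Rab31, span more than 60 bases there. The longest run shared with another Rab gene's probe was 7 to 13 of 60 bases, with a median of 9. No run reached 20 bases, so no pair of probes for different Rab genes shared a long exact stretch. Probes were compared only with probes, so whether a probe also matched the transcript of another Rab gene was not tested.

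At the endoplasmic reticulum (ER) and on the route to the Golgi, 4 of 4 Rab genes were measured. Of these, 1 (25%) was lower, beside 25.4% of all genes. This class and the next ones hold too few genes to read a difference between such shares. The class median was -0.91 after loess and -0.19 with median centring, which put the median of all genes at 0.58. Rab1, which directs vesicles from the ER to the Golgi, had log2 ratios of -0.82, -0.84 and -0.83 on the 3 arrays. It lay below 2-fold on each (mean -0.83 ± 0.01, SD, n = 3; adjusted p = 5.14e-06). Rab2 (-0.95 ± 0.01) and its copy Rab2b (-0.87 ± 0.01), which act between the ER and the Golgi, lay near the same value, also short of the call. Rab18, found on the ER and on lipid droplets, was the gene called lower (-1.28 ± 0.02, adjusted p = 2.53e-06). It fell short of 2-fold with the scanner software's processed signals (-0.95) and with median centring (-0.47).

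At the Golgi 6 of 7 Rab genes were measured. Of these, 3 (50%) were lower and 1 (16.7%) higher, beside 25.4% and 18.8% of all genes. The class median was -0.52 after loess and 0.08 with median centring. The range ran from Rab34 at the low end to Rab33a, at 1.20 ± 0.09 (SD, n = 3). Rab33a is the close relative of Rab33b, a Golgi Rab that binds an autophagy protein. It read 9.47, 9.54 and 9.42 in iPS M13 and 8.19, 8.44 and 8.19 in mix1. All iPS M13 readings lay above all mix1 readings (2.30-fold, adjusted p = 3.72e-05). Rab33b was at 0.25 ± 0.04 and was not called. Rab6a, the general Rab of transport from the Golgi back to the ER, was at -0.04, 0.01 and -0.06 on the arrays. Its mean of -0.03 ± 0.04 did not pass the adjusted p (0.194). Rab6b, a copy best known from neurons, was lower, at -1.83 ± 0.07 (adjusted p = 7.33e-06). Rab43, a further Golgi Rab, stood at the limit of the call, at -1.002 ± 0.020, and kept it in 9 of 16 alternatives. It fell short with median centring (-0.48), without normalization (-0.54), with the processed signals and the authors' value table (-0.93), with the GC trend taken off (-0.48), with limma's treat and without replicate 3 (-0.99).

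The Rabs of delivery to the surface, junctions and cilia comprised 6 measured genes of 6. Among them 2 (33.3%) were lower, beside 25.4% of all genes. The class median was -0.40 after loess and 0.06 with median centring. Rab13, which takes part in the assembly of tight junctions, had the third lowest ratio of all Rab genes. Its signal was 9.29, 9.38 and 9.37 in iPS M13 and 12.33, 12.36 and 12.39 in mix1, so the RNAs did not overlap. That made a log2 ratio of -3.01 ± 0.03 (SD, n = 3), or 8.06-fold lower (adjusted p = 8.67e-07). Rab8b was also lower, at -2.32 ± 0.01 (4.99-fold, adjusted p = 8.19e-07), with 9.46, 9.51 and 9.53 in iPS M13 and 11.76, 11.83 and 11.86 in mix1. Its copy Rab8a, which like Rab8b carries membrane to the surface and into the primary cilium, had ratios of -0.13, -0.10 and -0.11. Rab10, which brings glucose transporter vesicles and basolateral cargo to the surface, was at 0.33 ± 0.01, and was called higher with median centring (1.13) and without normalization (1.07). Rab28, a ciliary Rab, was at -0.33 ± 0.02 and Rab23, a negative regulator of hedgehog signalling, at -0.46 ± 0.07.

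Among the Rabs of secretory vesicles and granules, 5 of 7 were measured. Lower were 2 (40%) and higher 1 (20%), beside 25.4% and 18.8% of all genes. The class median was -0.65 after loess and 0.05 with median centring. Rab3c, one of the Rabs of synaptic and other regulated vesicles, had the highest ratio of all Rab genes and the widest spread, with log2 ratios of 3.19, 2.13 and 3.68 (3.00 ± 0.79, SD, n = 3; adjusted p = 0.00174). The iPS M13 signal was even, at 10.11, 10.10 and 10.18. The mix1 signal was 6.92, 7.97 and 6.50 and lay well above background on 1 of 3 arrays only, so the spread came from the dim RNA. The size of the Rab3c ratio is therefore loose, and it was 4.96 with the processed signals and the authors' value table. Rab26, a Rab of secretory granules, was lower, with ratios of -2.41, -2.42 and -2.46 (-2.43 ± 0.03, adjusted p = 1.22e-06). Rab27a and Rab27b dock granules and the vesicles that release exosomes. Rab27b was lower at -1.10 ± 0.04 (adjusted p = 1.00e-05), and Rab27a stood at -0.41 ± 0.02. Rab3d, which sits on the granules of gland and mast cells, was at -0.65 ± 0.06.

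Early endosomes and phagosomes held 6 measured Rab genes of 6, of which 3 (50%) were lower, beside 25.4% of all genes. The class median was -1.10 after loess and -0.55 with median centring. With the dimmest probe of each gene the median was -0.81. The 3 forms of Rab5, which drive the fusion of early endosomes, stood apart from each other. Rab5a had log2 ratios of 0.85, 0.73 and 0.75, short of 2-fold on every array (0.78 ± 0.07, adjusted p = 6.21e-05). Rab5b was at -0.84 ± 0.06 (adjusted p = 3.60e-05), with iPS M13 well above background on 2 of 3 arrays. Rab5c was lower at -1.44 ± 0.02 (2.71-fold, adjusted p = 2.28e-06). Rab22a, which sorts cargo at early endosomes and is the closest relative of Rab31, was lower too (-1.35 ± 0.01, adjusted p = 1.78e-06). Rab21, which moves integrins, was at -0.59 ± 0.01. Rab5a was called higher with median centring (1.34) and with the processed signals (1.32), and Rab5c and Rab22a lost their call with median centring (-0.73 and -0.51). Rab5b was called lower with the processed signals and the authors' value table (-1.18), which made 4 lower genes of the class.

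All 7 measured Rab genes of the recycling endosome, of 8 on the array, lay below 0 after loess, with a median of -0.93. Of the 7, 3 (42.9%) were lower, beside 25.4% of all genes. With median centring 4 of the 7 lay below 0, and the class median was -0.22. With the mean over probes, with the dimmest probe or with the GC trend taken off, 6 of the 7 did. Rab11a, the main Rab of slow recycling to the surface, read 13.66, 13.61 and 13.66 in iPS M13 and 15.44, 15.35 and 15.40 in mix1. The RNAs were separated on every array, by a log2 ratio of -1.75 ± 0.02 (3.37-fold, adjusted p = 1.66e-06). Its copy Rab11b was at -0.71, -0.70 and -0.80 (-0.74 ± 0.06), and turned to 0.11 with median centring. Rab25, the epithelial member of the Rab11 group, did not rise above background in either RNA. Rab15, which slows entry and recycling at endosomes, was lower, at -1.82 ± 0.02 (adjusted p = 1.49e-06). With the trend of the ratios on probe GC content taken off, Rab15 no longer reached 2-fold (-0.48). Rab4b, of the fast recycling route, was lower (-1.53 ± 0.01, adjusted p = 1.68e-06), and Rab4a was at -0.93 ± 0.02. Rab14 (-0.29 ± 0.01) and Rab35 (-0.23 ± 0.07), which link recycling endosomes with the Golgi and with the surface, had the smallest differences of the class after loess, and stood at 0.57 and 0.19 with median centring.

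On the route to the lysosome 4 of 5 Rab genes were measured and none was called by limma, beside 44.2% of all genes. The class median was -0.08 after loess and 0.71 with median centring. At an adjusted p under 0.05 alone, all 4 passed. Rab7, which takes late endosomes and autophagosomes to the lysosome, read 13.59, 13.54 and 13.64 in iPS M13 and 12.71, 12.63 and 12.75 in mix1. All iPS M13 readings were above all mix1 readings, but the log2 ratio of 0.89 ± 0.01 stayed below 2-fold (1.86-fold, adjusted p = 4.62e-06). Rab7 was called higher with median centring (1.72) and with the processed signals (1.26), and stood at 0.01 with the GC trend taken off. Rab9, which returns mannose 6-phosphate receptors to the Golgi, was at 0.05 ± 0.01. Rab12, linked to the breakdown of the transferrin receptor, was at -0.20 ± 0.04. Rab24, linked to autophagy, was at -0.77 ± 0.01. Rab38, the Rab of melanosomes and related organelles, was not called, but its probes disagreed. The 3 genes not assigned to a compartment were Rab2l, Rab40c (-0.92 ± 0.18) and Rab40b (-1.02 ± 0.10, called lower), of which the Rab40 pair belongs to ubiquitin ligases. Rab40b kept its call in 10 of 16 alternatives. The call was lost with median centring (-0.45), without normalization (-0.50) and with the processed signals and the authors' value table (-0.89). It was also lost with limma's treat and without replicate 1 (-0.98).

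**Figure D2:**
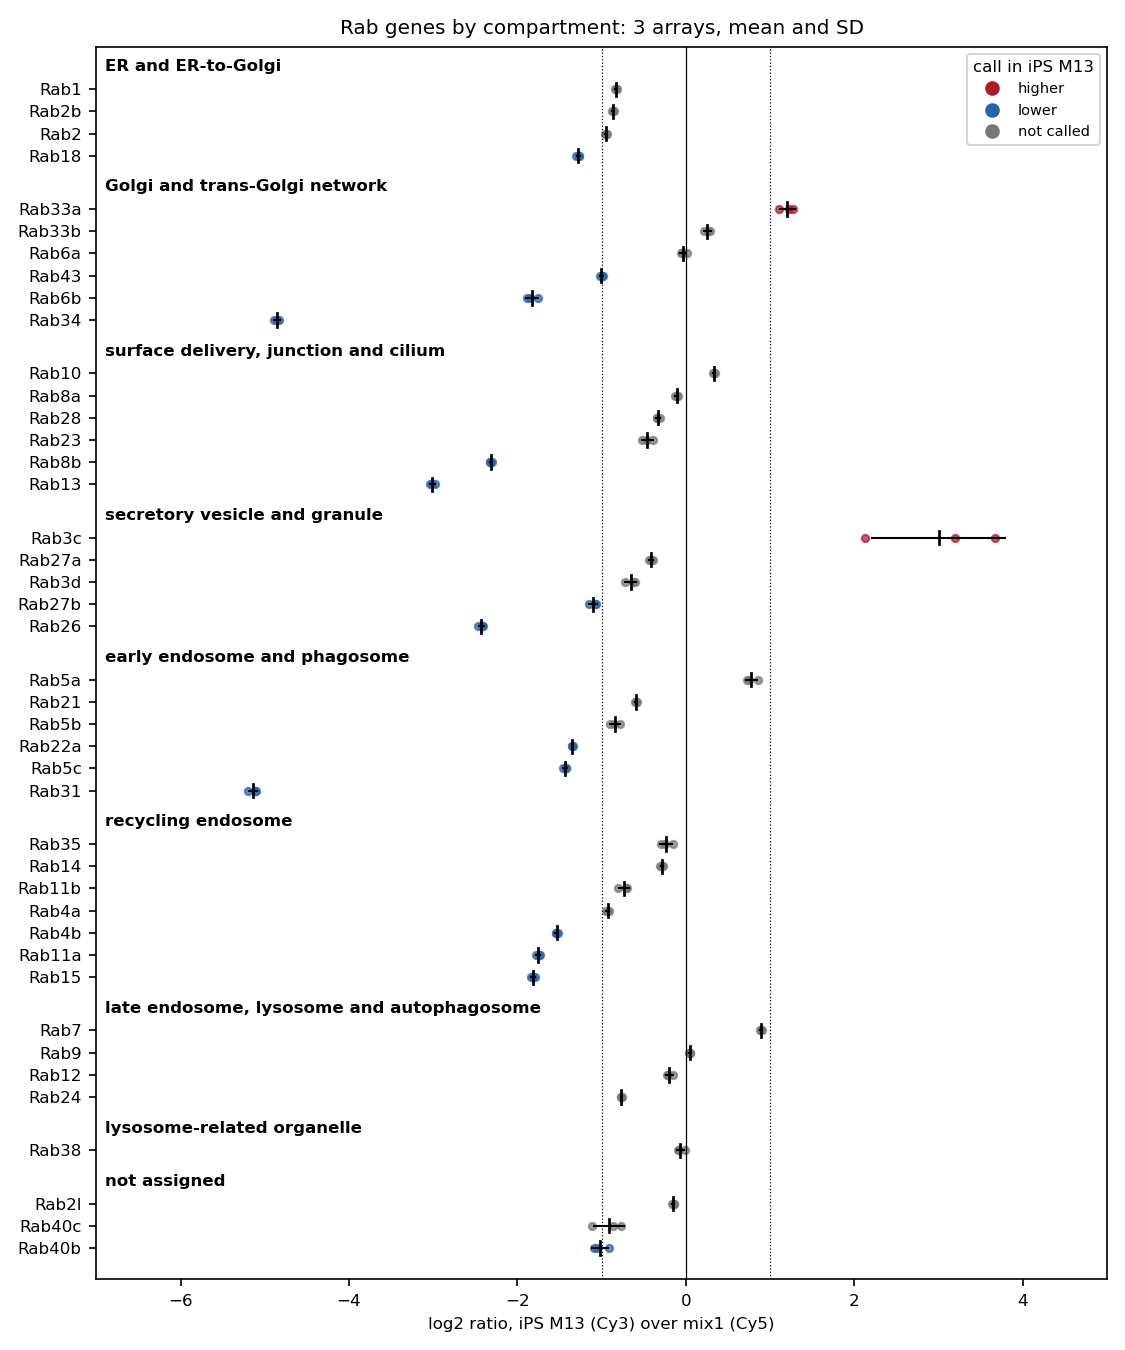
Log2 ratio of iPS M13 over mix1 on each of 3 arrays (dots), with the mean (tick) and SD (bar), for the 42 measured Rab genes grouped by compartment. Dotted lines mark 2-fold, and colour gives the call. Lower genes lie in 6 of the 8 compartments shown plus the unassigned genes, the 4 late endosome genes are all within the dotted lines, and the dots of Rab3c are the most widely spread.

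Close copies of 1 Rab often stood far apart. Of 11 groups of copies with at least 2 measured genes, Rab22a and Rab31 lay 3.79 ± 0.05 (SD, n = 3) apart on the log2 scale, or 2.29 with the dimmest probes. Rab3c and Rab3d lay 3.65 ± 0.81 apart, a loose value because mix1 was well above background for Rab3c on 1 of 3 arrays only, and 5.23 apart with the processed signals. The order of these gaps is therefore not settled. Rab10 and Rab13, with Rab8a and Rab8b between them, were 3.34 ± 0.03 apart. Rab5a and Rab5c were 2.21 ± 0.09 apart, Rab6a and Rab6b 1.80 ± 0.05, and Rab11b and Rab11a 1.02 ± 0.07. With the dimmest probes these pairs lay 1.55, 0.52 and 0.32 apart, in that order. The size of a gap therefore depends on the probes, which the SD between arrays does not cover. After loess the groups of Rab4, Rab5, Rab6, Rab8, Rab11, Rab27 and Rab40 each held a lower copy and a copy that was not called. No group then held both a higher and a lower gene. With median centring Rab10 was higher (1.13) while Rab13 (-2.19) and Rab8b (-1.51) were lower. With the processed signals Rab5a was higher (1.32) while Rab5c (-1.26) was lower. At the other end, Rab2b and Rab2 differed by 0.09 and Rab40c and Rab40b by 0.10 ± 0.11. These small gaps moved too. That of the Rab2 pair was 0.30 with median centring and 0.40 with the dimmest probes. That of the Rab40 pair was 0.92 with the GC trend taken off and -0.11 with median centring. These gaps are differences between ratios, were not tested, and say nothing of which copy was more abundant, since levels of different probes cannot be compared.

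**Figure D3:**
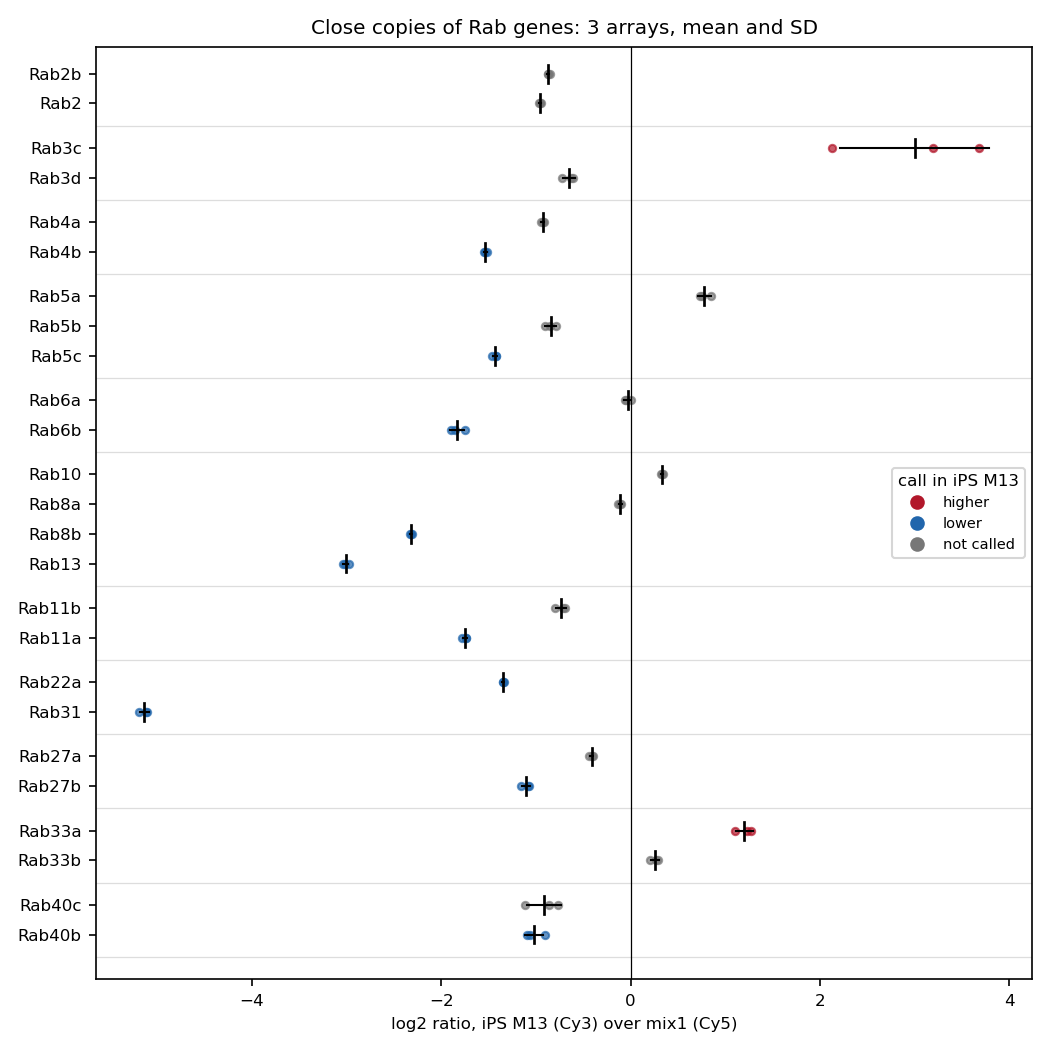
Log2 ratio of iPS M13 over mix1 for close copies of Rab genes, grouped between grey lines, with 3 arrays as dots, the mean as a tick and the SD as a bar. Rab31 lies 3.79 below Rab22a and Rab13 lies 3.34 below Rab10, whereas the Rab2 and Rab40 pairs nearly coincide with the loess scaling and brightest probes shown.

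Probes of the same Rab gene did not always give the same value. Of 17 Rab genes with 2 or more measured probes, 4 had probes that differed in their call and 3 had probes of opposite sign. The median gap between the highest and lowest probe of these 17 genes was 0.47 on the log2 scale. The SD between arrays had a median of 0.02 over all 42 measured Rab genes. The gap between probes was thus the larger value, but a range over probes and an SD over arrays are not like measures. The 2 probes of Rab31 read -5.14 and -3.34, both called lower. For Rab6b a second probe gave -0.67 ± 0.15 and was not called. The 2 further probes of Rab5c gave -0.82 and -0.78, and the second probe of Rab27b -0.70, again short of the call. Rab10, Rab12 and Rab14 had probes on both sides of 0, between -0.29 and 0.33.

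Rab38 was the extreme case, with a gap of 4.06. Its brightest probe gave ratios of -0.10, -0.08 and -0.02 (-0.06 ± 0.04, adjusted p = 0.0519), so the gene was not called. Its second probe, further along the chromosome in rn3, gave -4.16, -4.08 and -4.13 (-4.12 ± 0.04, called lower). There mix1 was well above background on all 3 arrays and iPS M13 on none, so the probe was at least 8.66-fold lower in iPS M13. The bright probe carries the accession of another record than the second one. With the GC trend taken off the bright probe turned to 1.27 and was called higher. Rab38 therefore has no settled direction here.

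**Figure D4:**
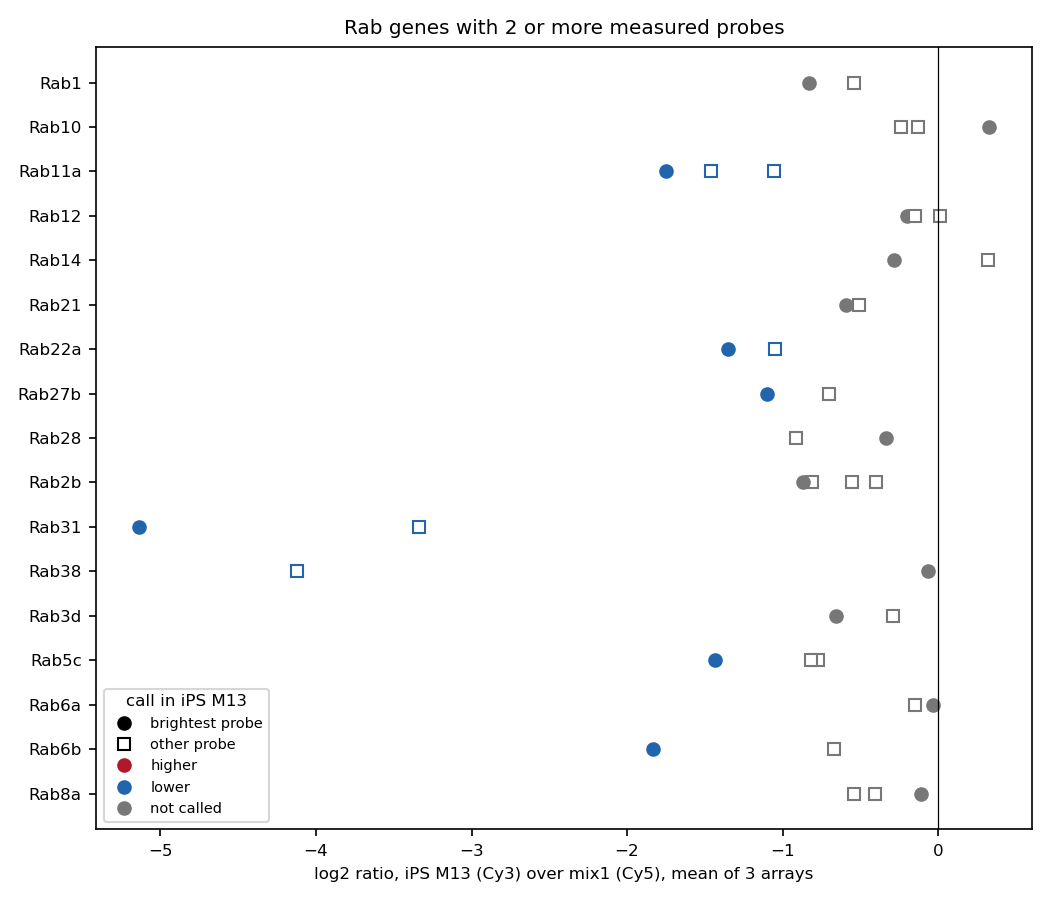
Mean log2 ratio over 3 arrays for each measured probe of the 17 Rab genes with 2 or more measured probes. Filled circles are the brightest probe, which stands for the gene, open squares the others, and colour gives the call of each probe. Rab38 shows the widest gap, from -4.12 to -0.06, and both Rab31 probes lie far below 0.

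Promoters were read to see what the Rab genes share in sequence, since so many lay on 1 side. RefSeq promoters, 250 bases before to 50 after the gene start in build GRCr8, were matched for 33 of the 41 measured Rab genes other than Rab2l. The GC box GGGCGG was found on either strand in 29 of the 33 (87.9%), compared with 34.9% of 27457 rat promoters. The TATA box TATAAA was in 0 of the 33 and in 14.3% of all promoters. The share with CCAAT was 39.4% against 37.7%, with the E-box CACGTG 9.09% against 6.65%, and with the AP-1 motif TGANTCA 12.1% against 7.33%. Median GC content was 66.0% against 52.3%, and the median number of CpG was 24 against 7 per 300 bases. GC-rich sequence holds the GC box more often, which these shares do not correct for. The 27457 promoters were also not limited to measured genes, as the 33 were, so these contrasts cannot be called particular to Rab genes. The GC box was in 11 of the 13 matched genes called lower and in 17 of the 19 not called, or 84.6% and 89.5%. CCAAT was in 4 (30.8%) and 9 (47.4%) of them, and TGANTCA in 3 (23.1%) and 1 (5.26%), counts too small to read a difference from. The promoters of Rab31 and Rab34, the lowest Rab genes, and of Rab7, the highest of the genes that were not called, are shown with every match of these motifs in capitals. A match is no more than these letters in this window. The table used gives Rab34 on the plus strand, whereas its probe maps to the minus strand in the older build.
Rab31 promoter, GRCr8 chr9:112828043-112828342, minus strand: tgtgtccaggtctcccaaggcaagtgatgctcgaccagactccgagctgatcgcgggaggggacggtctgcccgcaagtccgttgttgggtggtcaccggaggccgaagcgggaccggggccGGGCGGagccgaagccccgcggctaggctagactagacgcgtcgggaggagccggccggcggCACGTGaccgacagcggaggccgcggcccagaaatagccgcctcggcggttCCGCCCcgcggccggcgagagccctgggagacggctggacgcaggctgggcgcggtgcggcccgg
Rab34 promoter, GRCr8 chr10:63581292-63581591, plus strand: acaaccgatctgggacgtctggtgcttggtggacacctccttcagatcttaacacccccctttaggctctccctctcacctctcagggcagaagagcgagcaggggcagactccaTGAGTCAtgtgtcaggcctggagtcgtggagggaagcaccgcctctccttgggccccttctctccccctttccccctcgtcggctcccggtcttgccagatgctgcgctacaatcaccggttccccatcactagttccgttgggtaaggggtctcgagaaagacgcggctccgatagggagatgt
Rab7 promoter, GRCr8 chr4:122064136-122064435, minus strand: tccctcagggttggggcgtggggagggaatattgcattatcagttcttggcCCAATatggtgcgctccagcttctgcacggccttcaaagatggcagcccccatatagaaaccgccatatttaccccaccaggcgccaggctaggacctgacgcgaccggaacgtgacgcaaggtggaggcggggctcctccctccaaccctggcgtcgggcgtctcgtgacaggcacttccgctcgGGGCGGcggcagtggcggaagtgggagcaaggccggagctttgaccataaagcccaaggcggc

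The Rab31 promoter held the GC box on both strands and the E-box, that of Rab34 the AP-1 motif without a GC box, and that of Rab7 CCAAT and the GC box.

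The genes that act on Rab proteins were taken from a list of 122 present on the array, of which 105 were measured. Of these, 27 (25.7%) were lower and 12 (11.4%) higher in iPS M13, next to 25.4% and 18.8% of all genes, with a median of -0.51. The share of lower genes was thus close to that of all genes. The balance of the calls turned with the scaling, to 28 higher and 18 lower with median centring and 28 higher and 19 lower without normalization. Over all genes it turned as well. There 36.4% were higher and 17.8% lower with median centring, and 34.5% and 18.4% without normalization. The regulator median after loess was the same with the 5 genes that 1 RNA did not show above background set to their bounds.

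The shared machinery of prenylation and membrane extraction had 7 measured genes, with a median of -0.01. Of the 7, 1 was higher and 1 lower (14.3% each), beside 18.8% and 25.4% of all genes. Rabggtb, the catalytic subunit of geranylgeranyl transferase, was higher at 1.18 ± 0.03 (SD, n = 3; adjusted p = 4.30e-06). Its partner Rabggta was at 0.64 ± 0.03 and Chm, the escort protein that presents Rabs to the enzyme, at 0.84 ± 0.14, both short of 2-fold. Gdi2, a GDP dissociation inhibitor, was at -0.01 ± 0.04. Rabac1, a Golgi membrane protein that binds prenylated Rabs, was the lower gene (-2.82 ± 0.03, adjusted p = 1.01e-06). Chml was not matched to an array name.

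Of 34 measured exchange factors (median -0.63), 4 (11.8%) were higher and 9 (26.5%) lower, beside 18.8% and 25.4% of all genes. Rab3ip, also called Rabin8, the exchange factor of Rab8, was higher at 1.97 ± 0.04 (adjusted p = 2.22e-06), whereas Rab8b was lower and Rab8a was not called. Rin2, an exchange factor of Rab5, was lower at -3.98 ± 0.01 (adjusted p = 6.17e-07). Among 26 GTPase-activating proteins (median -0.50), 2 (7.69%) were higher and 8 (30.8%) lower. The highest, Tbc1d12, a member of the TBC family, was at 1.99 ± 0.03 (adjusted p = 1.86e-06).

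Of 38 measured effectors (median -0.42), 5 (13.2%) were higher and 9 (23.7%) lower, beside 18.8% and 25.4% of all genes. Rph3al, also called Noc2, which binds Rab3 and Rab27 in regulated secretion, was the highest of all regulators at 3.02 ± 0.30 (adjusted p = 8.15e-05), with mix1 well above background on 2 of 3 arrays. Sytl2, an effector of Rab27 that tethers granules to the surface, was the lowest at -5.99 ± 0.12 (adjusted p = 1.51e-06). Micall2, an effector of Rab13 at junctions, was lower at -4.17 ± 0.03 (adjusted p = 6.17e-07), beside a Rab13 ratio of -3.01. Sytl2 and Micall2 were the only measured regulators called at 16-fold or more in either direction.

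**Figure D5:**
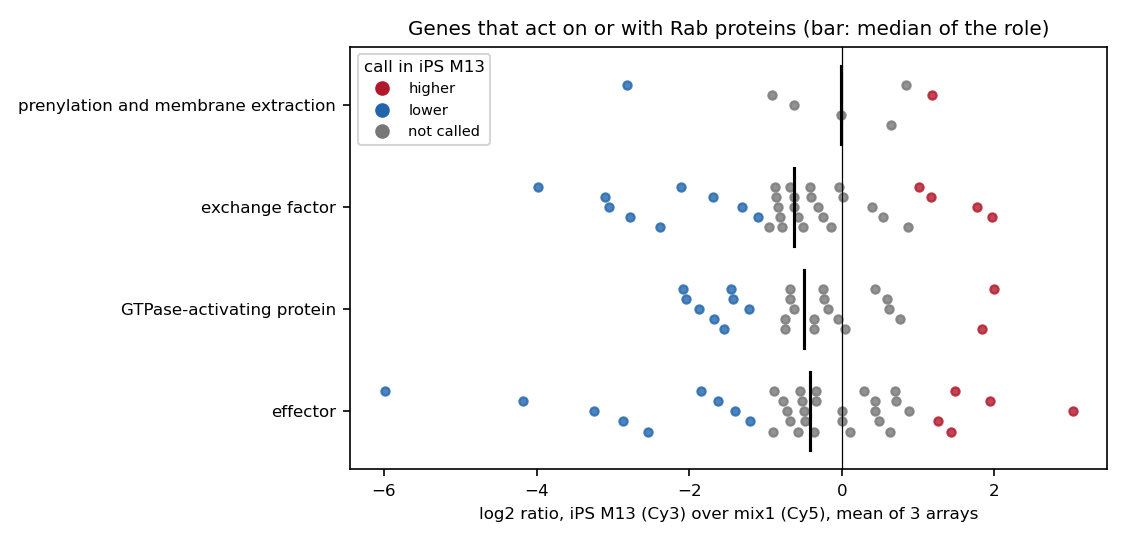
Log2 ratio (iPS M13 over mix1) for the 105 measured genes that act on or with Rab proteins, 1 dot a gene, each the mean of 3 arrays, by role, with the median of each role as a bar and the call as colour. With the loess scaling used all 4 medians lie below 0, and the effectors range from -5.99 to 3.02.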

How the data were processed

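Intensities of 3 two-colour Agilent arrays were deposited as scanner output, with mean spot signal and local background per channel, not yet normalized, per the file headers. The submitters' processing notes name Agilent Feature Extraction, and the file headers give version 9.5.3.1. The deposited log10 ratios in the same files are Cy5 over Cy3 of processed signals, per the file headers. Log2 ratios of unstated direction form the authors' value table. Its columns matched log2 Cy3 over Cy5 of the processed signals (slope 1.00, r of 0.99986 to 0.99995), with medians of -0.0413, -0.0282 and -0.0286. Whether the authors centred them is unknown. All columns were mapped. The arrays lay on 1 slide with 1 scan date.

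Background was corrected with normexp (offset 50) and each array normalized by loess, control spots having weight 0, using R 4.3.3, data.table (version 1.17.8) and limma 3.58.1. Python 3.11.15, pandas 2.3.3, numpy 2.4.6 and matplotlib 3.10.9 served sequences and figures. Outlier spots (205, 263 and 192) were left out and 1 saturated spot kept. Repeat spots were averaged. Probes had to be well above background in 1 channel on every array, and the brightest such probe stood for a name. Ratios were set against 0 with lmFit and eBayes (1.57 prior degrees of freedom). With 3 arrays a two-sided sign-flip test cannot go below 0.25 and was not used. Channel signals were scaled between arrays by Aquantile, which leaves ratios unchanged. For a bound, the dim RNA was given, on each array, its own signal or, if higher, the dimmest signal called well above background there. The procedure was tested on simulated data. Precision is limited by having 3 arrays.

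Of the 47 names, 31 matched RefSeq by accession, 15 by symbol and 1 by synonym. The members, compartments, regulators and markers were chosen with earlier results of these data known. Named were the 10 lowest and all higher Rab genes called with 1 sign on all arrays, Rab1, Rab1b, Rab25, Rab32, Rab38, Rab7, the forms of Rab3, Rab5, Rab6, Rab8a, Rab11 and Rab27, the close copies, the 3 highest and 3 lowest regulators, and Gdi2, Chm, Chml, Rabggta and Rabggtb. Another gene of that rule is not reported here. Other members and Rabac1 are named to spell out small counts, and Rab3il1 is named beside Rab3ip, which was decided after their values were seen. Motifs and promoters were also chosen afterwards. Alternatives covered scaling, background, the filter, the probe, GC content, the call rule, the variance model and left-out replicates.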

Additional observations from a re-analysis of the deposited data

How the results depend on the processing

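Across 16 alternatives Rab11a, Rab13, Rab26, Rab31, Rab34 and Rab8b stayed lower and Rab33a higher, and Rab3c stayed higher in the 15 that gave it a value. These alternatives do not count as separate tests. The 1.5-fold rule cannot undo a 2-fold call. Dropping the filter or fitting an intensity trend left the ratios and calls of these genes as they were. Rab13, Rab26, Rab34, Rab8b, Rab33a and Rab3c had 1 probe each. The mean over probes and the dimmest probe therefore could not change them, and the choice of probe was not tested for these genes. The processed signals and the authors' value table gave nearly the same values. Of the comparisons of single named genes, 319 kept direction and call, 11 lost the call, 18 gained one and 18 turned sign. The 1.5-fold rule, median centring, no normalization and the processed signals moved most counts. No paired analysis was possible because all samples form 1 group, each set against the same RNA within its array. Signal over background limits Rab3c, Rab5b and Rab38, whose dim RNA was near background. The dimmest probe was an alternative chosen after seeing the data, as were leaving out Rab2l and adding names by current symbol. Causes were not tested.

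With median centring 7415 genes in all were higher (main 3818), 5 Rab genes were higher and 8 lower, and 28 regulators were higher (main 12). By compartment, 1 early endosome gene was higher and 1 lower, 0 ER genes were lower, 1 late endosome and 1 surface gene were higher, 1 secretory gene and 0 unassigned genes were lower. Turned in sign were Rab8a (0.47), Rab11b (0.11), Rab27a (0.046), Rab38 (0.32), Rab3d (0.19) and Rab6a (0.77). Without normalization 7015 genes were higher, the counts of Rab genes (5 and 8), of regulators (28) and by compartment (1 or 0, as listed) were equal, and Rab8a (0.42), Rab11b (0.048), Rab38 (0.26), Rab3d (0.13) and Rab6a (0.71) turned.

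The processed signals and the authors' value table both gave 6319 genes, 4 Rab genes and 21 regulators higher, with 1 early endosome and 1 late endosome gene higher and 0 ER genes lower. Turned were Rab8a (0.030), Rab38 (0.19) and Rab6a (0.37). At 1.5-fold 6119 genes in all (30.1%), 4 Rab genes and 22 regulators were higher. Lower were 6946 genes in all (34.1%), 25 Rab genes and 48 regulators. In that setting 1 early and 1 late endosome gene were higher, and 5 early endosome, 4 ER, 1 late endosome, 5 recycling and 2 unassigned genes lower. With both channels above background 1 Rab gene, 0 secretory genes and 7 regulators were higher, beside 16.5% of all genes. With the GC trend taken off 2 ER genes were lower, and Rab38 turned to 1.27, so 1 lysosome-related gene was higher. The dimmest probe and the mean over probes each gave 1 lysosome-related and 1 secretory gene lower. An offset of 16 gave 2 unassigned genes lower and limma's treat against 2-fold gave 0. Leaving out a replicate gave 0 to 1 unassigned genes lower and 14 to 15 Rab genes lower, beside 25.2% to 25.6% of all genes.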

Other observations

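Some Rab genes stand on the array under names of another form. Through RefSeq, 4 such names carry a Rab symbol today, and they were found after the data were seen. Rab32, a Rab of melanosomes and of phagosomes, had log2 ratios of -2.07, -2.12 and -2.07 (-2.09 ± 0.03, SD, n = 3; adjusted p = 1.39e-06) and was lower in iPS M13, which was well above background on 2 of 3 arrays. Rab29, which works at the trans-Golgi network and on stressed lysosomes, had a mean of -0.03 ± 0.02 and was not called (adjusted p = 0.113). Rab19, a Golgi Rab, was at least 4.05-fold higher in iPS M13, with mix1 near background on each array (adjusted p = 6.48e-06) and the ratio above 0 on 3 of 3. Rab17, known from epithelial recycling, was not measured. With these genes counted as members, 3 Rab genes were higher and 16 lower.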
